A study of Mus musculus with 32 samples.

Results

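The genes described here had their highest transcript level at the 4-cell stage of the mouse embryo. They were chosen from the authors' table of 1 FPKM value per gene and stage (fragment counts normalized to transcript length and library size). Its 8 columns were, in order of development, the MII oocyte, the zygote, the early 2-cell, 2-cell, 4-cell and 8-cell stages, blastocyst inner cell mass (ICM) and embryonic stem cells (mESC). Each stage was scaled to a common median, values were taken as log2(scaled FPKM + 1), and a gene was kept when the 4-cell value exceeded the highest of the other 7 stages and the deposited 4-cell value was at least 5 FPKM. This gave 886 of the 5572 genes with at least 5 FPKM at 4-cell, a share of 15.9%, out of 24013 genes in the table. The difference between 4-cell and the next stage is called the margin, and all margins are on the log2(scaled FPKM + 1) scale. With 1 deposited value per stage the margin has no replicate error and was not tested.

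Embryos came from C57BL/6N females, given gonadotrophins to superovulate, mated with DBA/2N males. The 4-cell column stands for 2 samples, as do the columns of zygotes, early 2-cell, 2-cell and 8-cell embryos, MII oocytes from C57BL/6N females, and mESC of the R1 line kept in serum and LIF. The ICM column stands for 3 samples isolated by immunosurgery. A second table held 8-cell embryos of the same cross injected with siRNA and cultured in CZB medium with glutamine, with 4 libraries for siRNA against Nr5a2 and 4 for injected controls, and 1 column per library. All libraries were made from polyadenylated RNA by a modified Smart-seq2 method, which amplifies full-length cDNA from very few cells. The labels name no separate litters or cultures, so p-values in the knockdown cover only the spread between these libraries, which may be technical. In bulk samples, fewer cells of a type and less RNA per cell cannot be told apart.

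The mouse 4-cell embryo follows the major wave of zygotic genome activation at the 2-cell stage, in which the embryo's own genome takes over from the mRNA stored in the oocyte. Its nucleoli mature from compact precursor bodies into sites of ribosome production, and its blastomeres have not yet compacted or separated into trophectoderm and inner cell mass. Blastomeres of this stage are known to differ from each other in chromatin marks and in the activity of a few transcription factors, which pooled embryos cannot show.

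Markers of other stages and cell types were mixed in the 4-cell column. The oocyte gene Gdf9 stood at 19.4 FPKM at 4-cell, against 3496 in MII oocytes, and the 2-cell gene Zscan4d at 2.16 FPKM, against 87.5 in early 2-cell embryos. Cdx2 of the trophectoderm was listed at 0, and Nanog had 4.27 FPKM against 288 in ICM. Other such genes were higher. The oocyte gene Zp3 had 19.8 FPKM, against 63.1 in MII oocytes, and Zscan4f 10.7, against 136 in early 2-cell embryos. Gata4 of the primitive endoderm had 17.7 FPKM, against 5.44 in ICM. The other primitive endoderm markers went the other way. Sox17, Pdgfra and Sox7 had 0, 0.33 and 0 FPKM at 4-cell, against 1.35, 16.2 and 0.59 in ICM. Of the trophectoderm markers, Krt8, Krt18, Gata3, Eomes and Elf5 were low at 4-cell, with 0.66, 1.59, 0.77, 0.19 and 0 FPKM. Tead4, Tfap2c and Hand1, other genes of the trophectoderm, had 33.9, 60.1 and 119 FPKM. None of 16 cumulus and granulosa markers (0 of 16) reached 5 FPKM at 4-cell. Between 8388 (mESC) and 9580 (2-cell) genes reached 1 FPKM in a stage, and 9021 did at 4-cell. Read totals were not given, so the depth behind the stage values is unknown.

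Promoters of 6 of these genes are shown as examples. Socs3 and Nabp1 had among the largest margins. Nolc1, Ddx54, Nop2 and Ddx27 act in ribosome biogenesis, the gene group with the most members at this stage. These 4 were picked among members of that group whose window held the ETS motif named below. Each runs 5′ to 3′ on the gene's own strand from 250 bases before to 50 bases after the RefSeq start site (GRCm38.p6). Capitals mark matches, on either strand, to 5 short motifs. They are the GC box, with the letters GGGCGG, the CCAAT box, the core of sites for ETS factors, with the letters CCGGAAG, the E-box, with the letters CACGTG, and a motif of STAT factors, with the letters TTCNNNGAA.
Socs3: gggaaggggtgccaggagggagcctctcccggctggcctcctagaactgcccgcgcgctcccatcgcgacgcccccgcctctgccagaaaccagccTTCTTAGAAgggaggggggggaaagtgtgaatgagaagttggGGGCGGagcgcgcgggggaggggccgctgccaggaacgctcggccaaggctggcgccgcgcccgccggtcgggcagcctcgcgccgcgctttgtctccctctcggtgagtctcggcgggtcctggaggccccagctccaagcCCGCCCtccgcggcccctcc
Nabp1: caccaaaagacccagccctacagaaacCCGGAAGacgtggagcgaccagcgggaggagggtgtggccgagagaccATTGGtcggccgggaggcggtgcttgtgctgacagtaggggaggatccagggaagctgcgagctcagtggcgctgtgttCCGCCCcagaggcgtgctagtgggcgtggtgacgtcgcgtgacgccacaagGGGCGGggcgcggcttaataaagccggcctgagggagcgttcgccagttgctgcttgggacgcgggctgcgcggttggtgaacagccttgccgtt
Nolc1: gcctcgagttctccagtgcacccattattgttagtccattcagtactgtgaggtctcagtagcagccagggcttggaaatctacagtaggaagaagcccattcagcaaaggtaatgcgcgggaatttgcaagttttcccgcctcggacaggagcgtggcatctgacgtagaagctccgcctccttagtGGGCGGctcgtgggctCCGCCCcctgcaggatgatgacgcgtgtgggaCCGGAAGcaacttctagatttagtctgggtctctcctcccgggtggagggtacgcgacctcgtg
Ddx54: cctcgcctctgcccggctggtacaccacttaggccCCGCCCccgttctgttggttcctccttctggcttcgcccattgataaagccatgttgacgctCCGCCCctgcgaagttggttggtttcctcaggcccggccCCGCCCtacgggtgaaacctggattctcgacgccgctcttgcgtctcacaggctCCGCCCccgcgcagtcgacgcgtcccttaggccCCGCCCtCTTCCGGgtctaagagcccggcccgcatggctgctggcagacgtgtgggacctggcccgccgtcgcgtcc
Nop2: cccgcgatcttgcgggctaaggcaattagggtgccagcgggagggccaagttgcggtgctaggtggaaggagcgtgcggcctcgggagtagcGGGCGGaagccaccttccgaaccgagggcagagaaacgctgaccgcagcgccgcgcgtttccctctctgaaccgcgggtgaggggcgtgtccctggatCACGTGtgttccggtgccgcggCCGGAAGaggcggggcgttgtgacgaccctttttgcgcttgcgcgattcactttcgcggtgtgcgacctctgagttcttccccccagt
Ddx27: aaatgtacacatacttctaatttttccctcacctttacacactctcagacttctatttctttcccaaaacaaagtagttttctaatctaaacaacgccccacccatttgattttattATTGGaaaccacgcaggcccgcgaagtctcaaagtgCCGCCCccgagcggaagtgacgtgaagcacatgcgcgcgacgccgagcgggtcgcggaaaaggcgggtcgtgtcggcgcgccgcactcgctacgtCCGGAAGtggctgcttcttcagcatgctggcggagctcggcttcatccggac
Socs3 lies on the minus strand at chr11:117969317-117969616, and Nabp1 on the minus strand at chr1:51478350-51478649. Nolc1 lies on the plus strand at chr19:46075597-46075896, Ddx54 at chr5:120612880-120613179, Nop2 at chr6:125131633-125131932 and Ddx27 at chr2:167015063-167015362, all on the plus strand. The Socs3 window held a STAT match at position -154 from the start site. The ETS matches for which the 4 ribosome biogenesis windows were picked lay at -14 (Nolc1), -20 (Ddx54), -38 (Nop2) and -2 (Ddx27).

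Most margins were small. The margin had a median of 0.29 and reached 1.71, and 382 of the 886 genes had a margin under 0.25. A margin of at least 1, a doubling over every other stage, was found for 39 genes, 4.40% of the members and 0.7% of all genes with 5 FPKM at 4-cell. By the same rule 743 genes were highest at 2-cell and 103 of those (13.9%) had a margin of at least 1, while 916 were highest at 8-cell with 90 (9.83%) at that size. The next stage was 8-cell for 513 members and 2-cell for 230, mESC for 45, ICM for 42, MII oocytes for 29, early 2-cell for 20 and zygotes for 7. The genes just inside the threshold were Cep89, Ptpn1 and Wsb1, with margins up to 0.0034, and those just outside were Dhx33, Ruvbl1 and Slc35f2, with margins down to -0.0011.

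The median member was low in oocytes and zygotes and higher from the 2-cell stage on, a course that all genes with 5 FPKM at 4-cell shared. Relative to each gene's mean over stages, in log2 units, the median of all 5572 genes was -0.60 in MII oocytes, 0.21 at 2-cell, 0.56 at 4-cell and 0.50 at 8-cell. In members it was -1.14, 0.72, 1.60 and 1.08, and members were chosen by these same values. The median member had 2.14 FPKM in MII oocytes, 1.88 in zygotes, 2.19 in early 2-cell, 12.7 in 2-cell, 26.0 in 4-cell and 16.0 in 8-cell embryos, 7.24 in ICM and 3.46 in mESC. Below 1 FPKM in both MII oocytes and zygotes were 281 members, while 291 had at least 5 FPKM in MII oocytes. Between 4-cell and 2-cell the median difference was 0.84 and 347 members differed by at least 1, whereas between 4-cell and 8-cell it was 0.46 and 136 did. The median difference was thus larger toward 2-cell than toward 8-cell.

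Nolc1, a nucleolar phosphoprotein that shuttles ribosome assembly factors, had the largest margin, 1.71. It stood at 45.8 FPKM in MII oocytes, 33.5 in zygotes, 13.1 in early 2-cell embryos, 213 at 4-cell, 62.6 in ICM and 37.8 in mESC, and was listed at 0 at both 2-cell and 8-cell. The 4 injected 8-cell controls held 182, 147, 130 and 214 FPKM of it, so the listed zeros may be failed estimates, and its peak is uncertain. It was the only member listed at 0 at 2-cell or 8-cell with at least 5 FPKM in another stage.

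Socs3, the feedback inhibitor of LIF and other cytokine signals through JAK and STAT3, had the second largest margin. It was at 16.5 FPKM at 2-cell, 91.1 at 4-cell and 26.0 at 8-cell, and at 8.59 in ICM and 3.73 in mESC. Kcnk5, a background potassium channel, followed the same course with 3.29, 59.4 and 17.1 FPKM at 2-cell, 4-cell and 8-cell. Both were below 1 FPKM in MII oocytes and zygotes.

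Gcm1, the transcription factor that drives syncytiotrophoblast formation in the placenta, reached 13.3 FPKM at 4-cell, with 1.30 at 2-cell and 4.15 at 8-cell, and was at or below 0.28 FPKM in oocytes, zygotes, early 2-cell embryos, ICM and mESC. Fam212a had 35.1 FPKM at 2-cell, 106 at 4-cell and 28.4 at 8-cell and was below 1 FPKM in the other 5 stages. Nabp1, a single-stranded DNA binding protein of DNA repair, reached 72.2 FPKM against 22.0 at 2-cell and 26.3 at 8-cell. Ppp1r16b, a targeting subunit of protein phosphatase 1, had 14.8 FPKM, against 2.59 at 2-cell and 5.32 at 8-cell. These 4 genes were named for their large margins, so a lead of more than 1 log2 unit over both neighbours follows from that choice.

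Other genes with margins between 1.1 and 1.4 have roles in several cell functions. Qsox2, a sulfhydryl oxidase, had 12.1 FPKM at 4-cell with 2.93 at 2-cell and 3.77 at 8-cell. Cbx8, a Polycomb chromodomain protein, had 10.3 FPKM with 3.13 and 2.06 on either side. Fcgrt, the neonatal Fc receptor, had 28.7 FPKM with 10.02 and 6.53. Hps6, a subunit of a complex that forms lysosome-related organelles, had 18.7 FPKM with 3.44 and 6.64. Cactin, Ubtd1, Tprn, Tcf19, Frat1 (a GSK3-binding activator of Wnt signalling), Slc27a1 (a fatty acid transporter), Ino80b (a subunit of the INO80 remodeller) and Ctu1 (a tRNA thiolation enzyme) completed the range with Art5 and Fam65c. Sprr2e, with a margin of 1.59, Krt28 and Hba-a2 peaked at only 7.26, 6.06 and 6.30 FPKM. Hba-a2 is uncertain because its coding sequence is 99.8% identical to that of Hba-a1, and H2-Q8, at 17.6 FPKM, belongs to a family of near-identical class I genes.

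**Figure D1:**
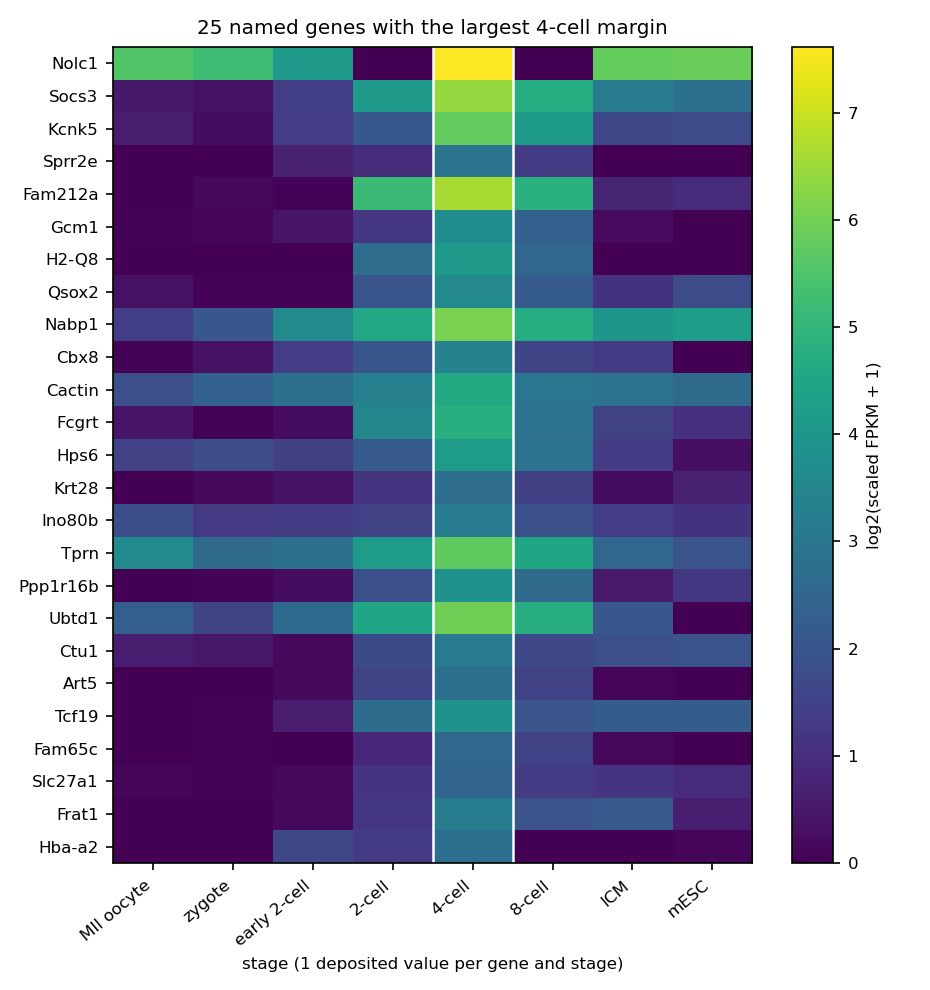
Levels of the 25 named genes with the largest 4-cell margin across the 8 stages, as log2(scaled FPKM + 1) of the 1 deposited value per stage (colour); white lines enclose the 4-cell column. Each row is brightest at 4-cell, most rows are next brightest at 2-cell or 8-cell, and Nolc1 is listed at 0 on both sides.

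The 10 members with the highest level at 4-cell had margins of 0.84 (Tubb4b) or less. Ctsl, the lysosomal protease cathepsin L, reached 947 FPKM with 485 at 2-cell and 812 at 8-cell, and is uncertain because 28.2% of its exon bases overlap a gene on the other strand. Mad2l1bp, which takes the checkpoint protein MAD2 off its complexes, had 704 FPKM, about level at 2-cell (368) and 8-cell (373). Tubb4b, a beta-tubulin with a near-identical pseudogene, had 635 FPKM, and Cdc20, the activator of the anaphase-promoting complex, 571 FPKM. Mat2a, which makes S-adenosylmethionine, the methyl donor of the cell, had 149 FPKM at 2-cell, 591 at 4-cell and 457 at 8-cell. Spic, an ETS-family factor, had 222, 575 and 512 FPKM at these stages and was below 2 FPKM in oocytes, zygotes, early 2-cell embryos and mESC. Znhit3, Wsb1, Eif4e and Tomm22 lay between 485 and 569 FPKM, with margins of 0.2, 0.0034, 0.012 and 0.15. Of these, Eif4e is uncertain because of a near-identical copy. Znhit3 is uncertain because 27.8% of its exon bases overlap a gene on the other strand.

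A second measurement of the 8-cell stage, the 4 injected control libraries, moved many of these peaks. It was added after the data were seen, and levels were set across tables that the authors normalized separately, by scaling to a common median. Of 881 members present in both tables, 511 (58.0%) were lower in the mean of the injected 8-cell controls than at 4-cell, and 382 (43.4%) were lower in each of the 4 libraries. With this mean in place of the 8-cell column, 479 members (54.4%) kept their highest value at 4-cell. Over all genes with 5 FPKM at 4-cell in both tables, 642 of 5523 (11.6%) were then highest there, so genes that were not members joined. Of the 38 present genes with a margin of at least 1, 26 were still highest at 4-cell and 14 still by at least 1.

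Gcm1 was among those that kept it, with injected controls at 0, 0, 0.124 and 0.879 FPKM, and its margin was then 2.44, now over 2-cell embryos. Fam212a kept a margin of 1.38 with injected controls between 9.32 and 17.7 FPKM, and Nabp1 a margin of 1.49 with controls between 13.2 and 19.6 FPKM. Ppp1r16b (1.95), Sprr2e (1.87), H2-Q8 (1.33), Cbx8 (1.28), Tcf19 (1.16), Art5 (1.15), Qsox2 (1.14) and Frat1 (1.06) also stayed above 1. In contrast Socs3 had 91.1 FPKM at 4-cell, against 135, 123, 38.3 and 79.8 FPKM in the injected controls, which lay on either side of it, and its margin became -0.56. Fcgrt had 91.2, 25.2, 20.2 and 9.11 FPKM there and Kcnk5 74.8, 46.0, 29.7 and 28.8 FPKM. For these genes the control libraries thus differed widely among themselves. The margins of Cactin, Tprn, Slc27a1, Ino80b, Anapc7 and Nolc1 were likewise below 0. Injection, culture and library series differ together between the 2 measurements and cannot be told apart.

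**Figure D2:**
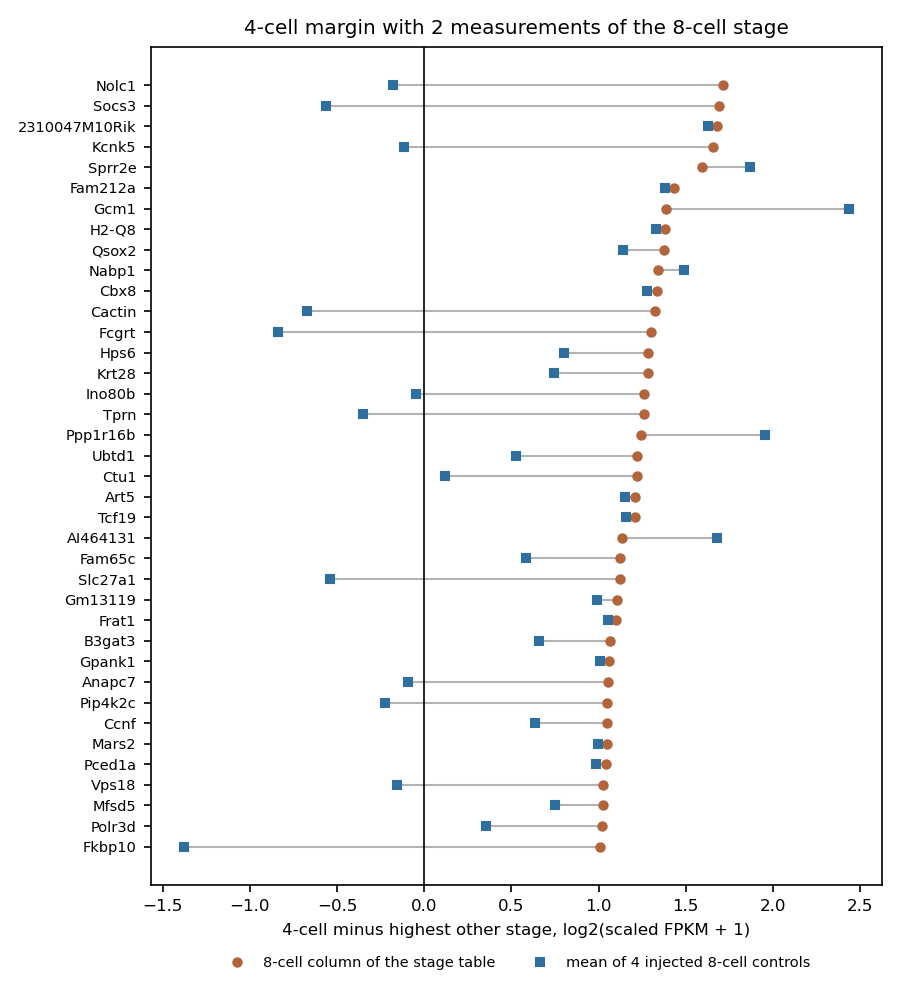
The 4-cell margin, in log2(scaled FPKM + 1), of the 38 genes with a margin of at least 1 that both tables hold. Circles use the 8-cell column of the stage table and squares the mean of the 4 injected 8-cell controls in its place; squares left of the line at 0 mark genes no longer highest at 4-cell, among them Socs3 (-0.56) and Kcnk5 (-0.11), while Gcm1 moves to 2.44.

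Ribosome biogenesis was the largest group among the members. Of 74 genes of this list with at least 5 FPKM at 4-cell, 27 (36.5%) were highest at 4-cell, against 15.9% over all genes. The list's median margin was -0.18, against -0.90 over all genes. All genes in the same classes of coding GC content, weighted to the list, gave 15.1%. With the injected 8-cell controls in place it was 15 of 74 (20.3%), beside 11.6% over all genes.

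The members of this list span the nucleolar pathway. The RNA polymerase I factors Ubtf, Rrn3, Polr1c and Polr1e, which transcribe the rRNA genes, were at 61.3, 97.4, 308 and 46.9 FPKM at 4-cell, with margins of 0.28, 0.15, 0.34 and 0.11. The small-subunit processing factors Nop9 and Rrp9 had 15.2 and 60.8 FPKM at 2-cell, 52.8 and 112 at 4-cell, and 25.6 and 46.7 at 8-cell. The large-subunit factors Bop1 and Nop2 had 21.8 and 40.2 FPKM at 2-cell, 64.7 and 89.1 at 4-cell, and 40.5 and 56.9 at 8-cell. The RNA helicases Ddx54 and Ddx27 had margins of 0.88 and 0.47. Ddx54 had 29.6 FPKM at 4-cell, against 39.5, 32.3, 26.7 and 60.6 FPKM in the 4 injected 8-cell controls, and Rrp9 112 FPKM, against 83.5 to 116 FPKM there. With the injected controls in place the margins of Ddx54 (-0.92), Rrp9 (-0.38), Nop9 (-0.10), Bop1 (-0.40), Nop2 (-0.061), Ddx27 (-0.84) and Ubtf (-0.24) were below 0, while Polr1c, Rrn3 and Polr1e kept margins of at most 0.11. Nop9 overlaps Cideb on the other strand over 30.8% of its exon bases and is uncertain.

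Genes for the proteins that ribosomes are made of had their highest median level in mESC. None of 77 cytosolic ribosomal protein genes was highest at 4-cell (0 of 77), and their median margin was -1.76. The median margin rests on mESC: without that column it was -0.55, beside -0.70 over all genes. The count of genes highest at 4-cell stayed low without mESC, at 3 of 77 (3.90%), beside 18.3% over all genes. The mitochondrial ribosome had 3 members of 75 (Mrps26, with a margin of 0.61, Mrps7 with 0.42 and 1 more), the respiratory chain 0 of 72, the proteasome 1 of 42 (Psmd4, margin 0.056) and the splicing factors 4 of 67 (Srsf5 and Snrpa, both at 0.33 or below, and 2 more). Srsf5 is uncertain because of a near-identical copy. Relative to each gene's mean over stages, in log2 units, the median ribosomal protein gene stood at 0.54 at 2-cell, 1.78 at 4-cell, 2.33 at 8-cell, 2.02 in ICM and 3.44 in mESC. Ribosome biogenesis stood at 0.49, 1.10, 1.08, 0.39 and 0.53 at these stages.

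**Figure D3:**
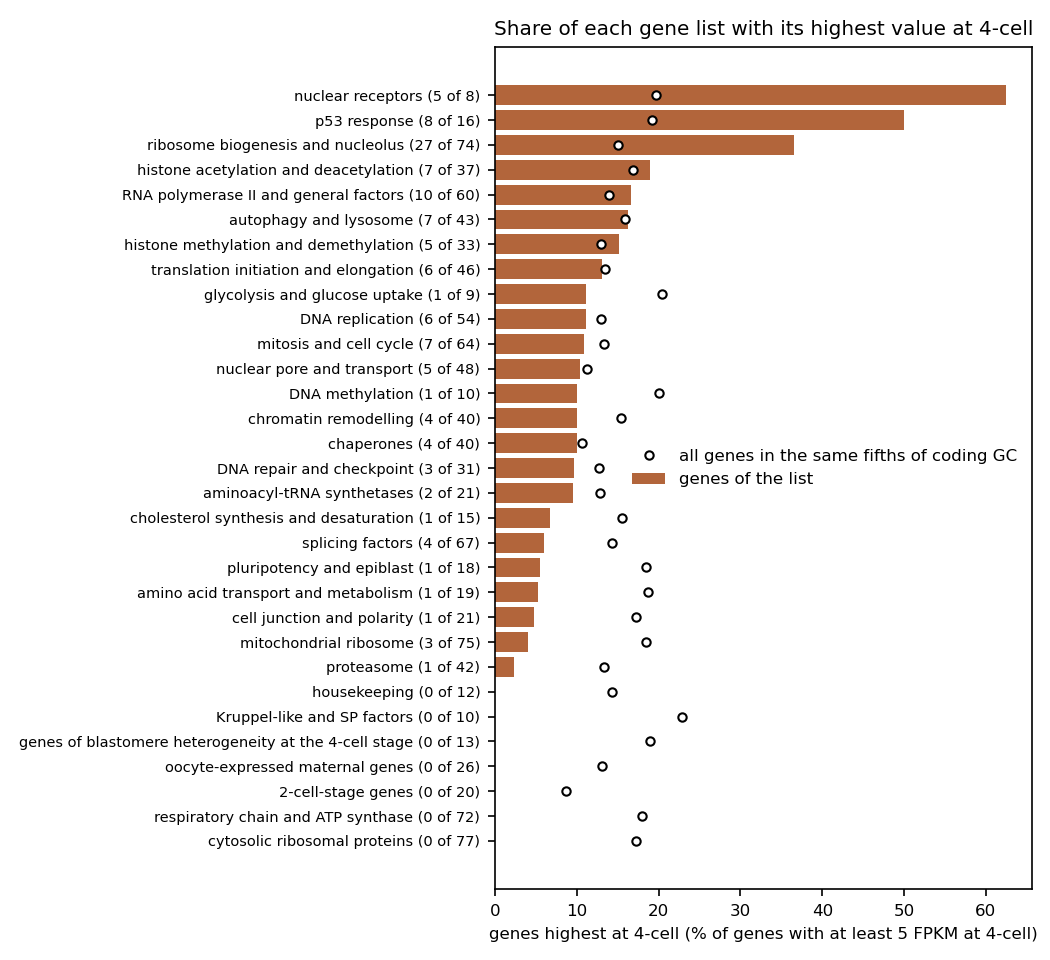
Share of each gene list, among its genes with at least 5 FPKM at 4-cell, that was highest at 4-cell (bars, %), with the counts beside the names; open circles give the share among all genes in the same classes of coding GC content. Lists with at least 8 such genes are drawn. Nuclear receptors (62.5%), the p53 response (8 of 16) and ribosome biogenesis (36.5%) lie beyond their circles, and the cytosolic ribosomal proteins and the respiratory chain are at 0.

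Of the p53 response genes, 8 of 16 were highest at 4-cell, beside 19.2% of genes with like GC content. Ddit4, an inhibitor of mTORC1 that p53 and other stresses induce, had 1.22 FPKM at 2-cell, 11.1 at 4-cell and 2.26 at 8-cell, with a margin of 0.94 over zygotes. Ei24, an endoplasmic reticulum protein, had 34.4, 83.5 and 44.0 FPKM at 2-cell, 4-cell and 8-cell, Aen, a nuclease, 14.8, 42.4 and 23.3 FPKM, and Sesn1, a leucine sensor upstream of mTORC1, 5.23, 17.4 and 10.01 FPKM. Cdkn1a, the p21 inhibitor of cyclin-dependent kinases, had 15.4 FPKM at 2-cell, 26.6 at 4-cell and 23.3 at 8-cell. In the injected 8-cell controls Cdkn1a was at 124, 66.3, 140 and 58.0 FPKM and Ddit4 at 32.4, 19.7, 4.19 and 10.4 FPKM. With these in place 5 of 16 genes of the list (31.25%) were highest at 4-cell, beside 11.6% over all genes.

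Of the 8 nuclear receptor genes with at least 5 FPKM at 4-cell, 5 were highest there, beside 19.7% of genes with like GC content, a small list in which 1 gene moves the share by 12.5 points. Nr5a2, the orphan receptor that binds early embryonic promoters and was the target of the study's knockdown, had 3.30 FPKM in early 2-cell, 26.9 in 2-cell, 48.1 in 4-cell and 38.4 in 8-cell embryos, and 4.65 in ICM, with a margin of 0.24. Nr1h3, the oxysterol receptor LXR alpha, had 11.9, 31.5 and 18.1 FPKM at 2-cell, 4-cell and 8-cell, and 0.11 in ICM. Nr1d2, a heme-binding repressor of the circadian clock, had 8.30, 15.4 and 10.5 FPKM, and Rarg, a retinoic acid receptor, 8.93, 21.7 and 17.0045 FPKM. Nr1d2 matches another transcript at 96.1% identity and is uncertain. With injected controls in place 4 of the 8 were highest at 4-cell, beside 11.6% over all genes. Rarg, which had 38.1 to 54.3 FPKM in these controls, was not among them.

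Lineage factors were mostly not members. Among the pluripotency genes only Nr5a2 was, 1 of 18, and Pou5f1 had 10.6 FPKM at 2-cell, 16.5 at 4-cell and 64.4 at 8-cell, with 149 in ICM. Of 5 trophectoderm genes at this level 2 were members. Tfap2c, an AP-2 factor of the trophoblast, had 18.4, 60.1 and 46.3 FPKM at 2-cell, 4-cell and 8-cell, and Hand1, a basic helix-loop-helix factor of giant cells, 4.00, 119 and 102 FPKM. Their margins over 8-cell were only 0.29 and 0.14. Tead4 had 33.9 FPKM at 4-cell and 42.6 at 8-cell, Klf5 26.4 and 28.9, and Klf17 371 FPKM with 543 in MII oocytes. None of 13 genes linked to blastomere differences at this stage was a member, and Carm1 (2.77 FPKM), Prdm14 (2.66) and Sox21 (1.10) did not reach 5 FPKM.

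The other lists are read against the 15.9% of all genes. Histone acetylation had 7 of 37 members, led by Mta2 (a NuRD subunit, 55.3 FPKM, margin 0.72) and the deacetylase Sirt7 (margin 0.43), and histone methylation 5 of 33, led by Setdb2 and Kdm4c. RNA polymerase II and its general factors had 10 of 60, led by Gtf2f1 (TFIIF, 114 FPKM, margin 0.69) and Ccnt1, the cyclin of P-TEFb, whose kinase Cdk9 was also a member at a margin of 0.11. Autophagy and lysosome genes had 7 of 43, with Atg3, the enzyme that lipidates LC3, at 52.3 FPKM and Atg9a at 51.4 FPKM, the second overlapping another gene over 43.3% of its exon bases. Mitosis and cell cycle had 7 of 64, with Anapc7, a subunit of the anaphase-promoting complex, at a margin of 1.05 and Ccnf, cyclin F, at 1.05. DNA replication had 6 of 54, led by Gins3 and Cdc45 of the replicative helicase, translation factors 6 of 46, with Eif3b and Eif4g1, nuclear transport 5 of 48, with Rcc1 and Ipo4, chaperones 4 of 40, with Dnajb11 and Bag3, and DNA repair 3 of 31, with Mdc1 and Rad9a. With the injected 8-cell controls in place, the margins of Mta2 (-0.54), Sirt7 (-0.15), Gtf2f1 (-0.57), Atg9a (-1.07), Anapc7 (-0.091), Eif4g1 (-0.39), Rcc1 (-1.17), Ipo4 (-1.03) and Bag3 (-0.67) were below 0. Those of Setdb2, Kdm4c, Ccnt1, Cdk9, Atg3, Ccnf, Gins3, Cdc45, Eif3b, Dnajb11, Mdc1 and Rad9a stayed above 0. Ipo4 is uncertain because 60.1% of its exon bases overlap another gene, most of all a gene on the same strand. Chromatin remodelling had 4 of 40 members, aminoacyl-tRNA synthetases 2 of 21, and cell junction and polarity (of 21), amino acid transport (of 19), cholesterol synthesis (of 15), DNA methylation (of 10) and glycolysis (of 9) 1 each. No member came from the 26 maternal, 20 2-cell-stage, 12 housekeeping, 10 Kruppel-like and SP, 5 Obox and other homeobox, 4 imprinted or 3 primitive endoderm genes at this level.

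Members were rich in GC in their coding sequences. These had a median of 55.6% GC, against 51.2% in the other genes with 5 FPKM at 4-cell, 50.7% in genes highest at 2-cell and 52.2% in genes highest at 8-cell. In 5 classes of equal size by GC content, from low to high, 5.17%, 9.81%, 14.4%, 21.5% and 29.3% of genes were members. The median difference between 4-cell and 2-cell over all genes moved along, with -0.11, 0.24, 0.38, 0.61 and 0.72 in the same classes. The difference between 4-cell and 8-cell moved less, with -0.092, -0.045, 0.050, 0.10 and 0.26. Its part in the choice of members was looked at by scaling each stage within each GC class, chosen after the data were seen: 851 genes were then highest at 4-cell, 721 of them members, and 20 of the 39 genes with a margin of at least 1 kept it. Promoter GC content differed little, with medians of 60.3% in members and 60.7% in the other genes.

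The X chromosome held almost no members. Of 148 X-linked genes with at least 5 FPKM at 4-cell, 3 were highest there (2.03%), against 868 of 5277 autosomal genes (16.4%). They were Zmym3, a zinc finger protein (11.4 FPKM at 4-cell and 8.16 at 8-cell), Eda, the ligand ectodysplasin (7.88 and 6.99 FPKM), and 1700080O16Rik (7.51 and 5.35 FPKM). At the neighbouring stages the share of X-linked genes was above that of autosomes: 14.4% of X-linked and 12.6% of autosomal genes were highest at 2-cell, and 29.2% and 16.7% at 8-cell. X-linked genes had a lower coding GC content, with a median of 48.6%, and genes of like GC content had a member share of 12.2%. Scaled within GC classes, 6 of 147 X-linked genes (4.08%) were highest at 4-cell, beside 15.7% over all genes. With the injected 8-cell controls in place it was 10 of 148 (6.76%), beside 11.6% over all genes. Among autosomes the member share ran from 8.66% on chromosome 18 to 24.9% on chromosome 17. In gene order 18.0% of members lay directly beside another member, against 11.5% of other expressed genes. Some such neighbours share exon bases: 35.1% of those of Tmem203 overlap another gene, most of all its neighbour Ndor1. Neither shared bases nor GC content was accounted for in these shares.

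**Figure D4:**
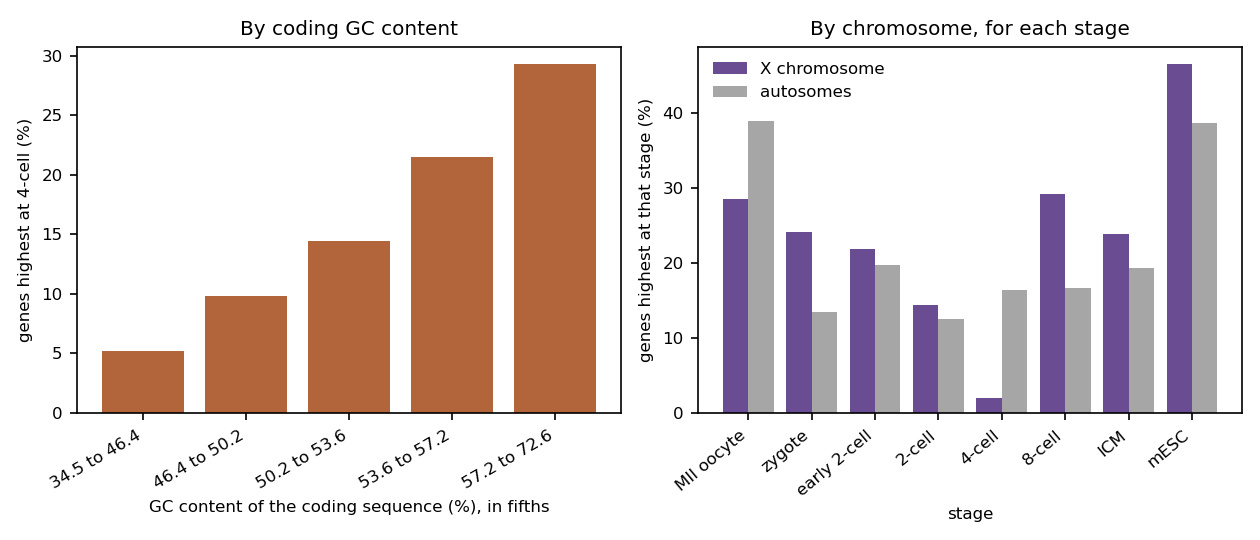
Left, the share of genes with at least 5 FPKM at 4-cell that were highest there (%), in 5 classes of coding GC content; it runs from 5.17% to 29.3%. Right, for each stage, the share of its X-linked and autosomal genes with at least 5 FPKM that were highest at that stage (%); at 4-cell it is 2.03% for the X chromosome and 16.4% for autosomes.

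Promoter windows were found for 734 members in the RefSeq tables. The ETS core CCGGAAG, on either strand, stood in 30.8% of them, against 24.6% of the other genes with 5 FPKM at 4-cell, 18.7% of genes highest at 2-cell, 22.1% of genes highest at 8-cell and 9.14% of all 27025 promoters. In ribosome biogenesis it stood in 15 of 22 members (68.2%), against 11 of 41 other genes of the list (26.8%). The windows of Nolc1, Ddx54, Nop2 and Ddx27 above were picked for this motif. Further short motifs were searched that are not given here. Of all those searched, ETS had the widest gap in this list, and no gap was tested. The TATA box TATAAA was in 6.68% of members and 14.2% of all promoters, and the GC box in 63.8% and 35.9%. The NR5A half-site AAGGNCA was in 17.03% of members, 15.3% of the other genes at this level and 20.2% of all promoters, and the STAT motif seen in Socs3 in 6.54%, 6.38% and 8.42%. Matches of short motifs are descriptions of the letters in these windows.

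The knockdown of Nr5a2 at the 8-cell stage is independent of how the members were chosen. The question was which genes at the stage after 4-cell differ when this receptor is lowered. Nr5a2 itself had 3.76, 4.25, 6.72 and 6.595 FPKM in the 4 knockdown libraries, against 23.6, 20.3, 13.1 and 25.2 FPKM in the 4 controls, with no overlap (log2 fold change -1.76, SE 0.27, limma adjusted p = 0.0143). Relative depth ran from 1.39 to 2.90 in knockdown libraries and from 1.0 to 2.69 in controls. Replicates correlated at 0.926 to 0.958.

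Of 862 members tested, 16 rose and 8 fell in the knockdown. Over all 8170 genes tested, 1.57% rose and 0.698% fell, and among members the shares were 1.86% and 0.928%, so members were called about as often as other genes. The median log2 fold change was 0.04 in members and 0.12 over all genes. Libraries of both groups did not overlap in 67 members with the knockdown above and in 38 with it below, beside 8.38% and 3.45% of all genes. Of the 32 genes tested that had a margin of at least 1, none was called by limma. Of them 6 had an unadjusted p under 0.05, as did 1683 of all 8170 genes, a like share. Counts of members depended on scaling: 12 rose and 15 fell after median scaling, and 9 and 9 after quantile normalization. Both scalings brought the median of all genes to 0.02 or below, and over all genes the 128 rises and 57 falls became 75 and 80 after median scaling.

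Dnajb14, a membrane-bound DnaJ chaperone of the endoplasmic reticulum, rose most. It had 63.2, 52.2, 29.8 and 56.9 FPKM in the knockdown libraries, against 4.77, 4.28, 11.8 and 11.7 FPKM in controls (log2 fold change 2.56, SE 0.35, limma adjusted p = 0.0094). Every knockdown library was above every control. In the stage table it had 33.3 FPKM at 2-cell, 39.7 at 4-cell, 28.1 at 8-cell and 3.61 in ICM. Ube2e3, a ubiquitin-conjugating enzyme, had 139, 130, 50.8 and 88.0 FPKM in the knockdown, against 18.8, 13.6, 27.5 and 24.9 FPKM in controls (2.16, SE 0.32, limma adjusted p = 0.0138). Its stage values were 83.4 FPKM at 2-cell, 141 at 4-cell and 76.8 at 8-cell, the last above all 4 injected controls.

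Abhd6, the lipase that breaks down the endocannabinoid 2-arachidonoylglycerol, had 169, 163, 118 and 187 FPKM in the knockdown, against 40.1, 37.8, 57.9 and 68.2 FPKM in controls (1.65, SE 0.22, adjusted p = 0.0094). Tekt2, a filament protein of ciliary and flagellar microtubules, had 30.02, 17.3, 14.2 and 18.3 FPKM, against 7.15, 3.59, 4.72 and 4.26 FPKM in controls (1.803, adjusted p = 0.0143), and overlaps another gene on the other strand over 25.7% of its exon bases. Drc1, a part of the dynein regulatory complex of cilia, rose by 1.74 on the log2 scale. Atp6v1d, a subunit of the lysosomal proton pump, rose to 120 ± 31.8 FPKM in the knockdown, against 47.2 ± 3.56 FPKM in controls (SD, n = 4 each; limma adjusted p = 0.0143), and Neu1, the lysosomal sialidase, to 11.2 ± 2.32 against 4.17 ± 1.13 FPKM. Rwdd4a, Eda, Med18 (a Mediator subunit) and Rad9a (a subunit of the DNA damage checkpoint clamp) rose by 1.32, 1.27, 1.13 and 0.95, and 1700080O16Rik by 2.14. Dnajb14, Abhd6 and Tekt2 stayed called in all 8 fits that left out 1 library; Ube2e3 and Atp6v1d lost the call only without control 1 (adjusted p = 0.0525 and 0.0611). Drc1, Neu1, Rwdd4a, Eda, Rad9a and Med18 were called in 3 or fewer of these 8 fits, and the last pair also lost the call after median scaling (adjusted p = 0.0668 and 0.0616).

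Besides the target, Tyk2, a Janus kinase of interferon and interleukin receptors, fell to 3.61, 3.20, 3.64 and 2.91 FPKM in the knockdown, against 9.35, 10.4, 8.41 and 6.71 FPKM in controls (log2 fold change -1.15, SE 0.22, limma adjusted p = 0.0313). Grb2, the adaptor that links receptor tyrosine kinases to Ras, had 16.3, 16.0, 19.9 and 30.5 FPKM, against 59.4, 33.0, 45.5 and 44.6 FPKM (-1.12, adjusted p = 0.0441), and is uncertain because of a near-identical copy. Sun1, which ties the nuclear envelope to the cytoskeleton, had 49.6 to 85.8 FPKM, against 98.9 to 145 FPKM (-0.96, adjusted p = 0.0441). Tmem191c, Wdr34 (a dynein-2 intermediate chain) and Xylb (xylulokinase) fell by 1.04, 1.04 and 0.91. Tmem191c is uncertain because 29.2% of its exon bases overlap another gene. Gm5129, uncertain because its coding sequence matches Dnajb6, fell by 1.56. Groups did not overlap for any of these genes. Each but Gm5129, which lost it in 3, lost its call in at least 6 of the 8 fits that left out 1 library, and Nr5a2 in 1, without control 1 (adjusted p = 0.0611).

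Socs3, with the second largest margin, had 28.4, 25.1, 71.0 and 22.9 FPKM in the knockdown, against 135, 123, 38.3 and 79.8 FPKM in controls. The groups overlapped, and it did not pass the test (log2 fold change -1.34, SE 0.42, limma adjusted p = 0.119). None of the 27 ribosome biogenesis members and none of the 8 p53 response members was called by limma; at an unadjusted p under 0.05 stood 6 and 3 of them, beside 1683 of all 8170 genes. Over the 27 the median log2 fold change was -0.12. Among members next highest at 8-cell, 6 of 502 rose and 8 fell. Among those next highest at 2-cell, 7 of 219 rose and 0 fell. Beside these stand 1.57% rises and 0.698% falls over all 8170 genes tested. The counts are of few genes, the difference between the 2 sets was not tested, and no pattern by next stage is drawn from it.

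**Figure D5:**
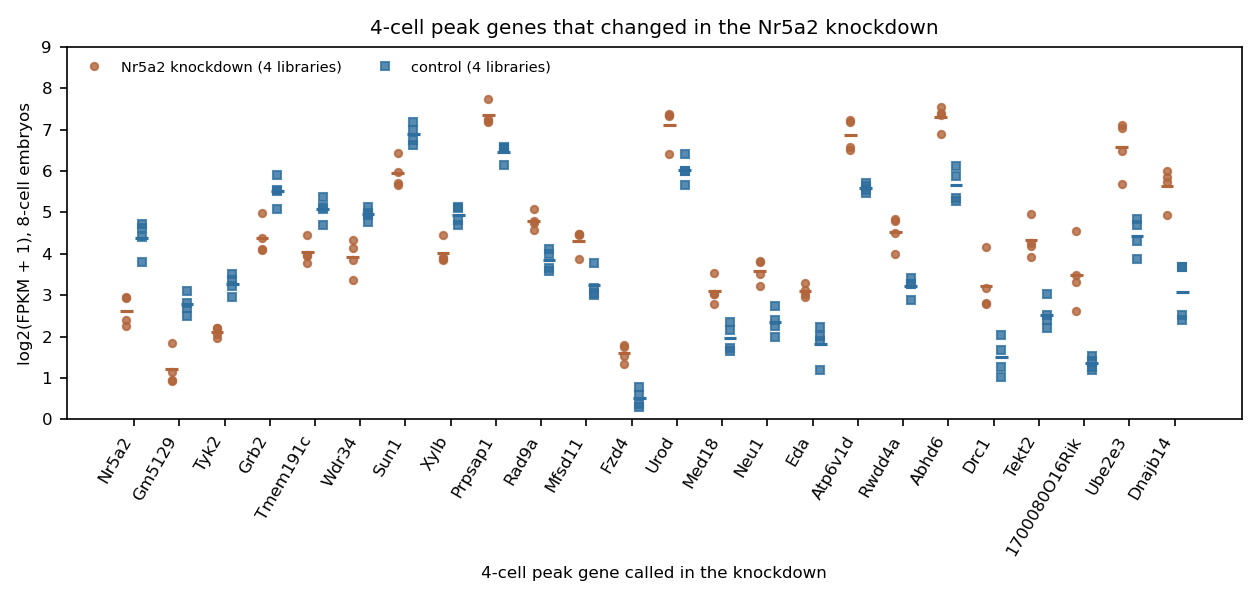
Levels, as log2(FPKM + 1), of the 24 members called in the Nr5a2 knockdown at 8-cell (limma adjusted p under 0.05), with knockdown libraries (circles, 4) left of controls (squares, 4) and bars at the group means; genes run from the largest fall (Nr5a2) to the largest rise (Dnajb14). In 23 of the 24 the groups do not overlap on this scale, and Urod, with a lowest knockdown value of 83.7 FPKM and a highest control value of 84.0 FPKM, is the exception.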

How the data were processed

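The authors deposited FPKM values, in 1 stage table with 1 column per stage and in knockdown tables with 1 column per library. The submitters' processing notes list CASAVA 1.8, STAR 2.4.0 and the mm9 build for all 32 samples, with no role or order given. They list Cufflinks 2.2.1 for 20, not for MII oocytes, early 2-cell embryos or the 8-cell knockdown libraries. How replicates became 1 stage column is not given in the sources used here. 30 values were missing, all in MII oocytes, and were left out.

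Stages were scaled linearly to a common median over the 4739 genes with at least 1 FPKM in all 8 stages, and the pseudocount was 1. The knockdown was fitted with limma 3.58.1 (R 4.3.3), with a variance trend, on log2(FPKM + 1) of genes with at least 1 FPKM in 4 libraries, Benjamini-Hochberg adjusted over all genes, threshold 0.05. Fold changes on this scale understate the change of low genes. On simulated data of 8170 genes, this knockdown fit recovered 36% of shifts of 1 log2 unit and 87% of shifts of 2, with 7 false calls. Low FPKM values fall on steps of single fragments, which gave the relative depth of the knockdown libraries. Replicate numbers of knockdown and control did not pair the libraries.

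Members and gene lists were chosen with earlier results of these data known. Named genes were the 25 named members with the largest margin, the 10 with the highest 4-cell level, 2 to 4 per list with at least 3 members, a fixed set of lineage genes, genes beside the threshold, members called in the knockdown, and other list members as examples. Near-identical copies (at least 95% identity over 50% of the coding sequence; 69 of 868 members) were searched with minimap2 2.31 against GENCODE M21, and 98 members had at least 20% of exon bases in another gene; strand use in counting is not given. Coding GC content and exon overlaps come from GENCODE M21 and promoters from RefSeq GRCm38.p6, matched by symbol, while the values were made on mm9. Margins and lists were computed in Python 3.11.15 with pandas 2.3.3 and numpy 2.4.6, and plots drawn with matplotlib 3.10.9.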

Additional observations from a re-analysis of the deposited data

Results flagged for a closer look

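In 5 of 116 groups of 4 libraries, 1 library of a named member stood far from the other 3, while chance flags about 1 in 20 groups. Gcm1 had 0.879 FPKM in injected 8-cell control 4 and 0 to 0.124 FPKM in the other controls. Ctsl had 495 FPKM in control 2, against 752 to 786 FPKM in the others, and Nr1d2 0.851 FPKM in control 2, against 1.54 to 1.65 FPKM. Tfap2c had 72.3 FPKM in control 1, against 47.3 to 51.0 FPKM in the others. Xylb had 20.8 FPKM in Nr5a2 knockdown 1, against 13.5 to 14.3 FPKM in the other knockdown libraries.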

How the results depend on the processing

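The number of genes highest at 4-cell, 886, became 1560 with no minimum level and stayed between 642 and 1157 in the other settings. The number with a margin of at least 1, 39, became 64 without scaling, 10 with a pseudocount of 5 and 23 with scaling within GC classes. With the injected 8-cell controls in place of the 8-cell column, margins of named genes turned negative for Nolc1 (-0.18), Socs3 (-0.56), Kcnk5 (-0.11), Cactin (-0.68), Fcgrt (-0.84), Ino80b (-0.046), Tprn (-0.35), Slc27a1 (-0.54), Ctsl (-0.082), Nop9 (-0.10), Ddx54 (-0.92), Rrp9 (-0.38), Mrps26 (-0.35), Mrps7 (-0.28), Eif4g1 (-0.39), Bag3 (-0.67), Rcc1 (-1.17), Ipo4 (-1.03), Anapc7 (-0.091), Mta2 (-0.54), Sirt7 (-0.15), Gtf2f1 (-0.57), Ddit4 (-1.04), Rarg (-1.54), Atg9a (-1.07), Tfap2c (-0.39), Bop1 (-0.40), Nop2 (-0.061), Ddx27 (-0.84), Ubtf (-0.24), Cdkn1a (-2.34), Psmd4 (-0.077), Tyk2 (-0.71), Grb2 (-1.24), Tmem191c (-1.69), Wdr34 (-0.66), Sun1 (-0.83), Xylb (-0.092), Drc1 (-0.018) and Med18 (-0.064). Scaling within GC classes turned Cdk9 (-0.16), Psmd4 (-0.081), Tyk2 (-0.0034) and Med18 (-0.54). Quantile normalization turned Znhit3 (-0.26), Eif4e (-0.22), Rrn3 (-0.11), Polr1e (-0.15), Dnajb14 (-0.12) and Atp6v1d (-0.13), and the median over all genes of a stage turned Drc1 (-0.012). The causes were not tested. Members that rose and fell in the knockdown, 16 and 8, numbered 10 and 4 with a pseudocount of 0.1, 0 and 0 with no filter on low values (7 and 4 over all genes), and 9 rises with quantile normalization and 15 falls with median scaling. Leaving out 1 library gave 3 to 19 rises and 0 to 17 falls, with the fewest without control 1 and the most without knockdown 3. Replicate numbers did not pair the libraries: deviations of same-numbered libraries correlated at 0.036, 0.082, -0.11 and -0.0016. With the replicate block 5 members rose and 2 fell. Depth of the stage values is unknown, and 1 value per stage leaves small margins without error.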
